A study of Mus musculus with 76 samples.

Results

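The tumours with introduced MAP3K11 were the only ones of the series labelled with cachexia, and they were set against the tumours of all other introduced genes. Each group consists of tumours of C57BL/6 mice made by directed complementation, in which a tumour first driven by a doxycycline-inducible HER2 (V659E) loses that driver on doxycycline withdrawal and is then maintained by another, introduced gene. MAP3K11 (also called MLK3) has 6 arrays, 2 for each of the labels T1, T2 and T3, whose meaning the labels do not give. The other 12 groups carry ErbB3, FAK1, FGFR2aIIIb, FGFR2aIIIc, FGFR3, HER2, PIP5K1B, RONd160, RON+MSP, RSK2, MAP3K7 (TAK1) or TNK2, are labelled with no cachexia and have 70 of the 76 arrays, 6 each except FAK1 with 4. All 13 groups share the strain, the inducible driver and its withdrawal. Arrays are labelled as biological replicates with no mention of the tumour line or mouse behind each, so p-values measure the spread between arrays. The introduced gene, the cachexia label and any property of the tumour line used for MAP3K11 cannot be told apart.

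MLK3 is a mixed-lineage kinase at the top of a mitogen-activated protein kinase cascade. It phosphorylates the kinases MKK4 and MKK7, which activate JNK, and JNK in turn phosphorylates c-Jun, a part of the transcription factor AP-1. AP-1 binds short DNA elements upstream of genes for proteases, cytokines and dual-specificity phosphatases, and some of these phosphatases switch JNK off again. Cachexia is the wasting of muscle and fat that accompanies many tumours and that secreted factors can bring about.

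Expression was measured as log2 values, so that 1 unit is a 2-fold difference, and the probe set with the highest mean over all arrays stood for each gene. The mean of the 6 MAP3K11 arrays was compared with the mean of the other 12 groups, each counted equally, by limma over 13868 genes, with p-values adjusted by Benjamini-Hochberg. At an adjusted p under 0.05, 7521 genes (54.2%) were called, 3461 higher (25.0%) and 4060 lower (29.3%) in MAP3K11. The counts of list members that rose or fell, given below, are to be read beside these shares of all genes. Under quantile normalization the balance turned, to 3926 higher and 3574 lower genes. Of the genes called as deposited, 489 genes (3.53% of those tested) were at least 2-fold higher and 314 (2.26%) at least 2-fold lower, and these 803 genes are described by function below. "Rose" and "fell" are used only of called genes, and differences are given in log2 units, MAP3K11 minus the other groups, with the standard error where one follows.

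The 2-fold differences were spread over many levels of size. Of the higher genes 98 differed by at least 2 log2 units, 31 by at least 3 and 11 by at least 4, and of the lower genes 66, 15 and 5. In 120 of the 489 higher genes (24.5%) every MAP3K11 array lay above all 70 other arrays, a property of 1.69% of all genes tested. In 82 of the 314 lower genes (26.1%) every MAP3K11 array lay below all others, against 1.67% of all genes tested. The MAP3K11 mean was the highest of the 13 group means in 462 of the higher genes and the lowest in 289 of the lower ones. It was 2-fold beyond every other group mean in 157 and 92 of them. Both sets of genes were selected for their difference on these same arrays. The high shares therefore follow in part from the selection and are a description, no further support. When each of the other groups was compared in the same way with the remaining 12, the next counts were 197 higher and 26 lower genes in RSK2 and 162 higher and 167 lower genes in ErbB3. The comparisons share arrays, since each group is part of the mean for the others.

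**Figure D1:**
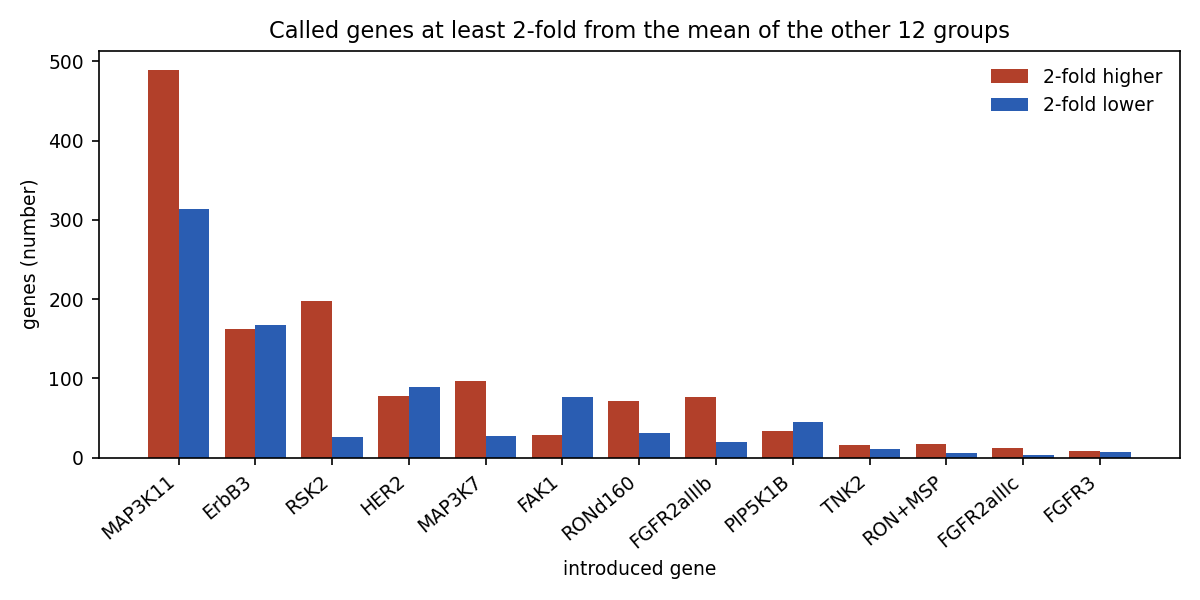
Number of called genes at least 2-fold higher (red) or lower (blue) in each of the 13 introduced-gene groups against the equally weighted mean of the other 12, by limma. MAP3K11 had 489 higher and 314 lower genes, and no other group had over 197 or 167.

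Facts of the whole series bear on these counts. The arrays of each group were divided into the pairs most alike in the medians of whole chromosomes, so that every array was given a partner. The 2 arrays of a pair always carry different T labels. With these pairs, which were found from the data, as a random block, 5455 genes (39.3%) were called, and 481 of the 489 higher and 294 of the 314 lower genes were among them. Unless the block is named, standard errors and adjusted p-values of single genes are from the fit without it. They can be too small, since arrays of a pair correlated by 0.628 in the blocked fit. The MAP3K11 pairs are T1 replicate 1 with T3 replicate 1, T1 replicate 2 with T2 replicate 2, and T2 replicate 1 with T3 replicate 2. In that order Pearson's r of the chromosome medians was 0.805, 0.951 and 0.473, against a median of 0.958 over all pairs. The last of these was the lowest of the series. With the chromosome medians taken out, r across genes was 0.897, 0.9 and 0.895. The mouse Map3k11 probe set read 7.01 to 7.31 in the MAP3K11 arrays and 6.79 to 7.43 in the others (0.11 ± 0.05, adjusted p = 0.0923), so it does not tell the MAP3K11 arrays from the rest and gives no check of the labels. Without T1 replicate 2 the difference was 0.15 and was called. Values near 2.95, the level of bacterial control probe sets, are background, and in 6 of the higher genes the mean of the other groups lay below it.

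Secreted signals included some of the widest differences. Among 50 genes of the TGF-beta superfamily, 17 rose and 6 fell, 4 and 2 of them by 2-fold. Bmp2, a bone morphogenetic protein, read 9.54 at the lowest, 10.8 in the median and 10.93 at the highest in MAP3K11 arrays, against 5.26, 7.26 and 11.94 in the others (3.06 ± 0.52, adjusted p = 1.08e-06). All but 2 of the other arrays lay below the MAP3K11 values. Those 2, T1 replicate 2 and T3 replicate 1 of MAP3K7, read 11.9 and 11.94, above every MAP3K11 array. Inhba, a subunit of activin A, rose by 1.78, while Inhbb, the subunit of activin B, fell by 1.62 and Bmp4 fell by 1.36. Of 65 interleukin and interleukin receptor genes, 23 rose and 8 fell. Il11, a cytokine that signals through gp130, read 9.37, 9.66 and 10.45 in MAP3K11 arrays, against 5.6, 6.87 and 12.73 in the others (2.79 ± 0.45, adjusted p = 4.16e-07). The same 2 MAP3K7 arrays, labelled with no cachexia, stood above the MAP3K11 values for Il11 too, at 12.73 and 12.21. Clcf1, another ligand of gp130 receptors, rose by 1.36 and the decoy receptor Il1r2 by 1.52, and Il15, which sustains natural killer cells, fell by 1.55.

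Of 48 growth factor genes 10 rose and 8 fell, both below the shares over all genes, 25.0% and 29.3%. The colony-stimulating factors moved apart. Csf2, which drives granulocytes and macrophages, read 8.36, 8.9 and 10.84 in MAP3K11 arrays, against 4.04, 6.92 and 8.96 in the others (2.48 ± 0.4). The groups overlapped in 3 of the other arrays. Csf1, the survival factor of macrophages, read 8.17, 8.25 and 8.63 in MAP3K11 arrays, against 8.28, 10.01 and 11.2 in the others (-1.59 ± 0.24), and 2 other arrays lay as low. Fgf5 rose by 1.70 with all MAP3K11 arrays above all others, Pdgfd by 1.56 and the EGF receptor ligand Btc by 1.28. Bdnf, a neurotrophin, read 4.92, 5.17 and 5.45 in MAP3K11 arrays, against 6.32, 7.69 and 9.25 in the others (-2.42 ± 0.22), with no overlap. Pappa, a metalloprotease that frees insulin-like growth factors from their binding proteins, read 8.15, 8.75 and 9.24 in MAP3K11 arrays, against 4.55, 5.32 and 7.9 in the others (3.32 ± 0.21). These ranges did not overlap either.

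Of 26 acute phase and wasting factor genes, 7 rose, close to the 25.0% of all genes, and 3 fell, below the 29.3% of all genes. By 2-fold 3 rose (11.5%, against 3.53% of all genes). Besides Inhba these were Calcb, which encodes a calcitonin gene-related peptide (2.07, all arrays apart), and Retnla (1.68), a product of macrophages in type 2 responses. Among 38 TNF ligands and receptors, 11 rose and 7 fell. Tnfaip6, a secreted hyaluronan-binding protein, read 10.2, 10.67 and 10.74 in MAP3K11 arrays, against 5.0, 7.16 and 8.36 in the others (3.54 ± 0.23, adjusted p = 9.54e-21). The lowest MAP3K11 array lay 1.84 above the highest other one. Tnfrsf11b, the decoy receptor osteoprotegerin that holds back osteoclasts, fell by 2.12.

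The Wnt and Notch pathways held more higher than lower genes. Of 32 Wnt ligands, antagonists and targets, 12 rose and 4 fell, 8 and 2 of them by 2-fold. The antagonists of the Sfrp family, a group chosen after its values were seen, had 4 of 5 members 2-fold higher: Sfrp4 (1.93), Sfrp2 (1.65), Frzb (1.14) and Sfrp1 (1.12). Sfrp1 was not called without the pair T1 replicate 2 and T2 replicate 2 (0.85). The ligands Wnt11 and Wnt2 both rose by 1.55, Wnt5a fell by 1.03, and Apcdd1, a membrane inhibitor of Wnt signalling, fell by 2.05 with no overlap. Of 32 Notch and Hedgehog genes 14 rose and 5 fell, and 7 rose by 2-fold. They were the receptors Notch3 (1.83) and Notch4 (1.01), the ligands Jag1 (1.41) and Dll4 (1.07), the target factors Heyl (2.00) and Hey1 (1.62) and the Hedgehog factor Gli2 (1.04). Rbpj, the DNA-binding partner of Notch, picked after its value was seen, fell by 1.36 with all MAP3K11 arrays below all others.

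Receptors and channels rose more often than they fell. Of 164 ion channel genes, 54 rose and 19 fell, and 17 rose by 2-fold while only Kcnf1, a silent potassium channel subunit, fell by 2-fold (-2.64). Chloride channel genes had 2 of the widest differences. Ano4, an anoctamin, read 8.16, 8.57 and 8.71 in MAP3K11 arrays, against 2.39, 2.67 and 3.2 in the others (5.80 ± 0.06). The others lay near background, and with values under background set to it MAP3K11 was at least 46.2-fold higher (adjusted p = 1.71e-64). Cftr, the chloride channel of epithelia that is mutated in cystic fibrosis, read 7.74, 8.25 and 8.55 in MAP3K11 arrays, against 2.11, 2.62 and 4.64 in the others (5.51 ± 0.13), at least 35.9-fold higher on the same footing (adjusted p = 3.19e-45). Of 28 chloride channels and regulators, a family set up after these values were seen, 18 rose and 3 fell. Its other 2-fold members were Clca3b, Clca3a2 (at least 3.23-fold higher), Clca3a1 (1.66), Clcn5 and Ttyh2, and probes of the near-identical Clca genes may share signal. Among potassium channels Kcnc2 rose by 3.52 ± 0.22 and the calcium-activated channel subunit Kcnmb4 by 2.14, both with all arrays apart. Gria1, a glutamate receptor subunit, rose by 3.42 ± 0.36.

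Of 148 G protein-coupled receptors 51 rose and 21 fell, 10 and 4 of them by 2-fold. The adhesion receptors Adgrg6 (2.87) and Adgrg2 (2.54) had all MAP3K11 arrays above all others. Ffar2, the receptor of short-chain fatty acids, rose by 2.22, the R-spondin receptor Lgr6 by 2.11 and the prostaglandin receptor Ptger4 by 1.47. C3ar1, the receptor of a complement fragment, fell by 1.34 and the microglial receptor Gpr34 by 1.42. Of 255 solute carriers, 82 rose and 48 fell, and 9 rose by 2-fold (3.53% of those tested, the share found over all genes). Slc2a3, the glucose transporter GLUT3, read 9.4, 9.94 and 11.31 in MAP3K11 arrays, against 6.16, 7.33 and 10.11 in the others (2.74 ± 0.28), of which 2 reached the MAP3K11 range. The nucleoside transporter Slc29a1 fell by 1.69 with no overlap. Of 37 receptor tyrosine kinases, 15 rose and 3 fell, and only Pdgfrb, a receptor of fibroblasts and pericytes, passed 2-fold (1.06).

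Among genes of MAP kinase signalling, several that encode phosphatases differed. The activity of the kinases was not measured. Of 57 JNK and AP-1 genes 27 rose and 9 fell, 12 and 2 of them by 2-fold. Dusp10, a phosphatase that acts on JNK and p38, read 9.67, 9.9 and 10.06 in MAP3K11 arrays, against 5.66, 6.85 and 7.95 in the others (2.99 ± 0.16, adjusted p = 1.91e-24). No other array came within 1.72 of the lowest MAP3K11 array. Of 22 Dusp genes, a family set up after the values were seen, 9 rose and 4 fell, and 6 rose by 2-fold. Besides Dusp10 they were Dusp1 (2.30), Dusp8 (1.70, no overlap), Dusp4 (1.69), Dusp16 (1.32) and Dusp14 (1.07), while Dusp9, which prefers ERK, fell by 1.25. Kinases upstream of JNK, Map3k20 (-1.53, no overlap) and Map3k5 (-1.03), fell, as did the stress protein Gadd45b (-1.53, no overlap). Of 33 ERK output genes 8 rose and 8 fell, and the 6 that rose by 2-fold included Phlda1 (1.19) and the feedback inhibitor Spry2 (1.06). Mouse Erbb2 and Map3k7 were not called (-0.09 ± 0.07 and -0.19 ± 0.09), and of these Map3k7 lay closer to a call. Map3k7 was called under several alternatives, among them without T1 replicate 2 (-0.24) or T2 replicate 2 (-0.23) and on its probe set of largest variance (-0.36). Erbb2 was called only without the pair T2 replicate 1 and T3 replicate 2 (-0.19).

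Of 265 kinases and phosphatases of signalling, 104 rose and 50 fell, 30 and 6 of them by 2-fold. Grb14, an adaptor that binds and restrains the insulin receptor, read 8.35, 8.77 and 9.95 in MAP3K11 arrays, against 4.17, 5.83 and 8.11 in the others (3.20 ± 0.28), with no overlap. Dgkk, a diacylglycerol kinase, rose by 2.17. Families of cyclic nucleotide signalling were also formed after the values were seen. Of 19 phosphodiesterases, which break down cyclic AMP or cyclic GMP, 9 rose and 4 fell, and 6 rose by 2-fold: Pde8a (1.88), Pde9a (1.63), Pde3b (1.46) and Pde5a (1.20), each with all arrays apart, and Pde7b and Pde1b. The guanylate cyclase subunits Gucy1a2 (1.37) and Gucy1b1 (1.02) rose. Of 13 protein kinase A anchors 5 rose, among them Akap6 (1.94) and Akap12 (1.65), and 4 fell, and of 7 adenylate cyclases 5 rose and 1 fell, none of them by 2-fold. Prkar2b, a regulatory subunit of protein kinase A, read 6.09, 6.96 and 7.24 in MAP3K11 arrays, against 7.25, 8.87 and 9.79 in the others (-2.05 ± 0.13), so that the ranges just missed each other. Of 243 small GTPases and their regulators, 73 rose and 54 fell, 10 and 2 of them by 2-fold. These 2-fold shares were 4.1% higher and 0.8% lower, against 3.53% and 2.26% of all genes tested. Srgap1, which acts downstream of Slit and Robo, rose by 2.96 ± 0.13, and Slit3 (1.78) and Robo1 (1.05) also rose.

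**Figure D2:**
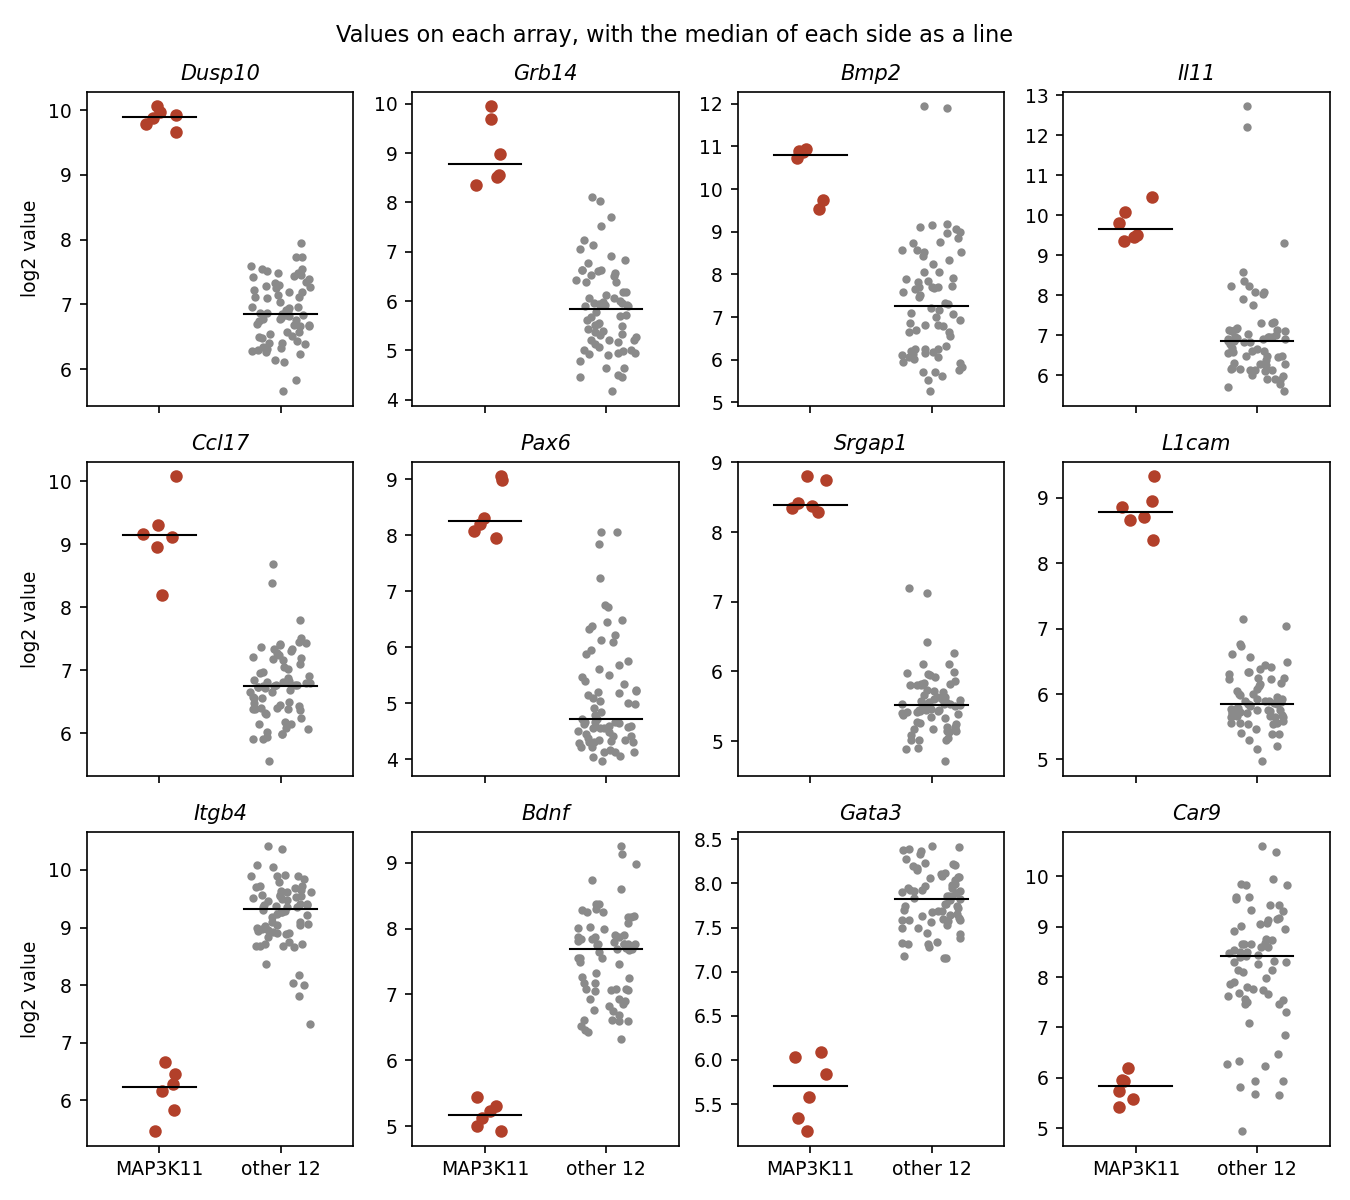
Log2 values on each array for 12 genes, with the 6 MAP3K11 arrays in red left of the 70 arrays of the other 12 groups in grey, and the median of each side as a line. The sides do not overlap for Dusp10, Grb14, Srgap1, L1cam, Itgb4, Bdnf and Gata3, and some other arrays reach the MAP3K11 values for the rest.

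Developmental transcription factors moved in both directions. Of 184 such genes other than homeobox genes, 62 rose and 39 fell, 17 and 8 of them by 2-fold. Pax6, a factor of eye and brain, read 7.95, 8.26 and 9.05 in MAP3K11 arrays, against 3.96, 4.72 and 8.06 in the others (3.29 ± 0.34), and 2 other arrays reached the MAP3K11 range. Rorb, an orphan nuclear receptor, rose by 2.80 with no overlap, Sox2 by 1.58, and Ebf1 by 1.78. Gata3, a regulator of luminal mammary cells, read 5.19, 5.71 and 6.09 in MAP3K11 arrays, against 7.15, 7.83 and 8.42 in the others (-2.15 ± 0.13, adjusted p = 2.02e-21). Its highest MAP3K11 array lay 1.06 below the lowest other one. Foxf1, a factor of lung and gut mesenchyme, fell by 3.51 ± 0.42, and Fendrr, the non-coding RNA encoded beside it and picked for that reason after its value was seen, fell by 2.37. Of 75 homeobox genes 23 rose and 11 fell. Within them 13 of 20 Hox genes rose and none fell, a count made after the values were seen, and 7 did not pass the test. Hoxb2 (1.44), Hoxa9 (1.40), Hoxc8 (1.39) and Hoxc10 (1.20) passed 2-fold, and Dlx1 fell by 2.07 with no overlap.

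The mammary lineage genes fell on both sides too. Of 35 lineage regulators and hormone receptors, 7 rose and 6 fell, both below the shares over all genes, 25.0% and 29.3%. Aldh1a3, a retinaldehyde dehydrogenase of luminal progenitors, read 11.44, 11.56 and 11.92 in MAP3K11 arrays, against 3.79, 6.7 and 12.38 in the others (4.71 ± 0.59), of which 2 reached the MAP3K11 range. Id4, an inhibitor of helix-loop-helix factors, rose by 1.96, and Tbx3, a factor of mammary development, fell by 1.44. Of 15 milk genes 7 rose and 3 fell, with the kappa-casein Csn3 (4.75 ± 0.52) and the milk fat globule protein Btn1a1 (3.30 ± 0.24) above all other arrays and the water channel Aqp5 lower by 2.11. Of 51 keratin and cornified envelope genes, 11 rose and 1 fell, and Krt20 (2.69), Krt19 (2.47), Sprr1a (2.19) and Krt16 (1.21) passed 2-fold. Of 11 luminal markers 6 rose and none fell, and their mean was 7.09 to 7.62 in MAP3K11 arrays, against 5.71 to 7.4 in the others; its part in these results was not tested. In bulk samples, more cells of a type and more RNA per cell cannot be told apart.

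Genes of the epithelial-mesenchymal switch gave 10 higher and 7 lower of 29. Twist2 (2.93 ± 0.26), Snai2 (1.28) and Prrx1 (1.15), factors of mesenchymal cells, rose by 2-fold. S100a4, a calcium-binding protein of motile and mesenchymal cells, read 10.37, 10.68 and 12.13 in MAP3K11 arrays, against 12.27, 13.28 and 13.45 in the others (-2.12 ± 0.14), with no overlap. Anxa8, an annexin, fell by 2.11. The markers of fibroblasts had 8 of 12 higher and 1 lower, with a mean of 11.1 to 11.51 in MAP3K11 arrays and 9.19 to 11.78 in the others.

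Genes of adhesion to neighbouring cells and to matrix moved in both directions. Of 28 integrin genes 10 rose and 7 fell. Itgb4, the integrin of hemidesmosomes, read 5.46, 6.23 and 6.67 in MAP3K11 arrays, against 7.33, 9.33 and 10.41 in the others (-3.10 ± 0.15, adjusted p = 1.27e-27), with no overlap. Itgb8, which activates latent TGF-beta, fell by 2.34, while the collagen receptor Itga1 (1.63, no overlap) and the dendritic cell integrin Itgax (1.58) rose. Of 53 junction genes 24 rose and 12 fell. The desmosome genes Dsp (3.75 ± 0.73) and Dsc2 (1.95) rose and Pkp2, also of desmosomes, fell by 1.94. Tight junction genes Cldn6 (-1.81), Cgn (-1.06) and Cldn1 (-1.01) fell and Cldn23 rose by 1.31. Of 25 mucin and surface genes 8 rose and 3 fell, with Muc16 higher by 1.42 and Msln, the surface protein that binds it in human cells, lower by 1.95. Msln was not called without the pair T1 replicate 2 and T2 replicate 2 (-0.96). Wfdc2, a secreted protein of epithelia, fell by 3.05.

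Matrix genes and the enzymes that act on them rose more often than they fell. Of 37 collagen genes 17 rose and 3 fell, and Col2a1, the collagen of cartilage, rose by 2.38 with no overlap. Of 115 other matrix genes 45 rose and 13 fell, 18 and 7 of them by 2-fold. Smoc2 (2.67), the collagen-binding fibromodulin Fmod (2.57) and the integrin ligand Npnt (2.47) rose, and the small proteoglycan Dcn (-1.47) and the guidance molecule Ntn1 (-2.32) fell. Of 146 proteases 64 rose and 21 fell, 25 and 5 of them by 2-fold. Adamdec1 (4.84 ± 0.8) and Tmprss11e (3.95 ± 0.81) rose most, each with other arrays within the MAP3K11 range. Fap, a surface protease of activated fibroblasts, rose by 1.97 with no overlap, and 5 of 16 Mmp genes, counted after the values were seen, were 2-fold higher while Mmp16 fell by 1.67. Of 47 protease inhibitors 16 rose and 2 fell. Serpinb2, an inhibitor of plasminogen activators, read 9.9, 10.35 and 10.59 in MAP3K11 arrays, against 3.35, 5.79 and 8.57 in the others (4.40 ± 0.5), with no overlap.

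Complement and coagulation had the largest share of 2-fold higher genes among the lists with at least 25 members, in the fit without pairs as a block. The lists were chosen with earlier results of these data known, so their ranking is a description and no test. Of 28 genes, 15 rose and 5 fell, and 9 rose by 2-fold (32.1%, against 3.53% of all genes). As fitted with pairs as a block, 7 of the 28 were 2-fold higher, beside 8 of 32 Wnt genes. The list then no longer led alone. Among the 9 were the C1 inhibitor Serping1 (2.01), the clotting factor F7 (1.91) and the anticoagulant receptors Thbd (1.77) and Procr (1.74). The complement protease C2 (1.39) and the urokinase receptor Plaur (1.08) were others. The initiator of clotting F3 stood at 1.01, just inside the 2-fold limit. Masp1, a protease of the lectin pathway, fell by 1.61.

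**Figure D3:**
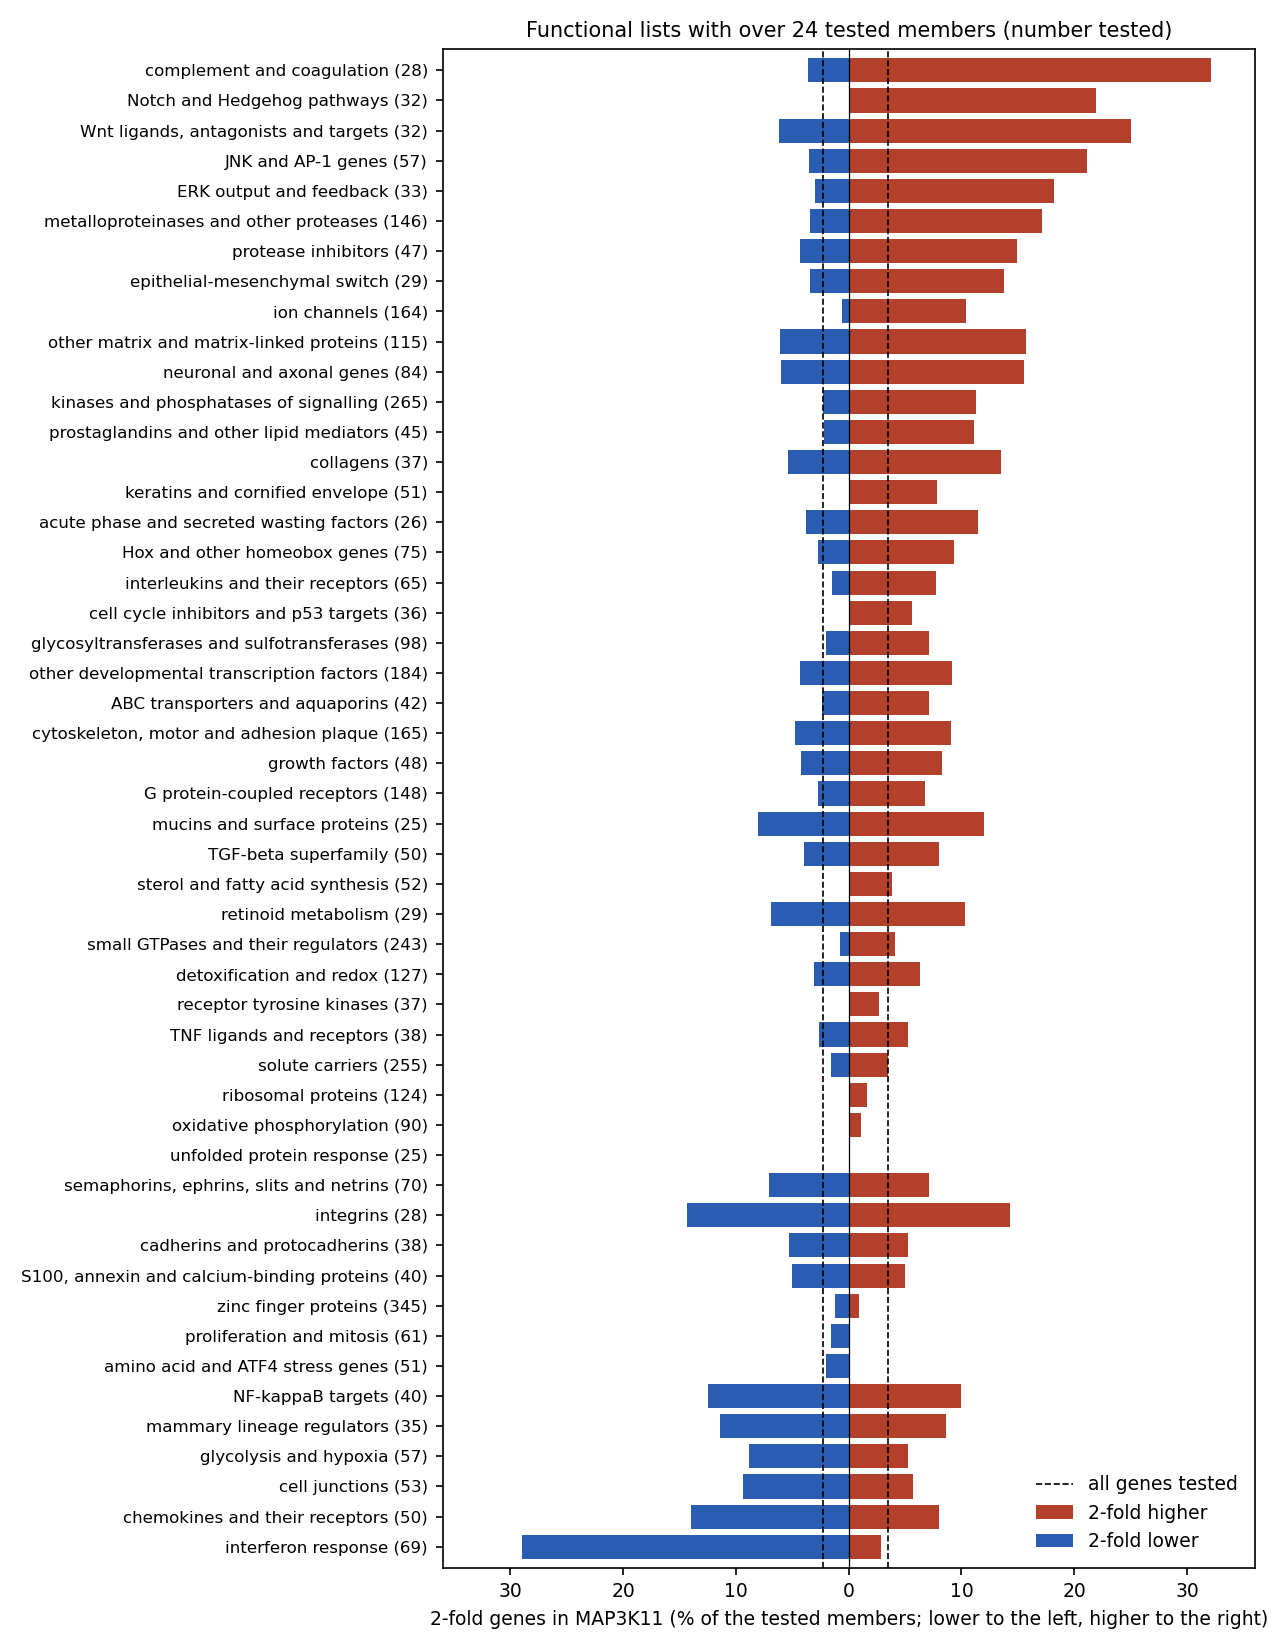
Share of the tested members of each functional list, with at least 25 of them, that were called and at least 2-fold lower (blue, to the left) or higher (red, to the right) in MAP3K11, in percent, with the shares of all genes tested as dashed lines (2.26% lower, 3.53% higher). Complement and coagulation reached furthest to the right with 32.1% and the interferon response furthest to the left with 29.0%, in the fit without pairs as a block. The lists were chosen with earlier results of these data known.

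Among the lists, which were chosen with earlier results of these data known, the interferon response had the most 2-fold lower genes. Of 69 members 3 rose and 47 fell, and 20 fell by 2-fold, with a median difference of -0.71 against -0.01 over all genes. Xaf1, an apoptosis-linked product, read 7.12, 7.3 and 7.83 in MAP3K11 arrays, against 8.44, 9.54 and 10.92 in the others (-2.16 ± 0.18). Gbp2, a guanylate-binding protein that attacks intracellular microbes, read 6.31, 6.83 and 7.47 in MAP3K11 arrays, against 7.51, 8.95 and 11.14 in the others (-2.10 ± 0.27). Neither gene's ranges overlapped. Bst2, which tethers budding viruses, fell by 1.67, Ifit1, a sensor of foreign RNA, by 1.57, and the regulator Irf7 by 1.39, while Gbp8 rose by 1.73. Antigen presentation divided by class. Of 18 class I genes 1 rose and 7 fell, among them the peptide trimmer Erap1 (-1.48, no overlap) and the immunoproteasome subunit Psmb10 (-1.0). Of 11 class II genes 9 rose and 1 fell, among them H2-Aa (1.54), H2-Eb1 (1.08) and the invariant chain Cd74 (1.35).

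Chemokine genes also divided at 2-fold. Of 50 ligands and receptors 10 rose and 9 fell, both below the shares over all genes, 25.0% and 29.3%. By 2-fold 4 rose (8.0%) and 7 fell (14.0%), against 3.53% and 2.26% of all genes. Ccl17 read 8.19, 9.14 and 10.08 in MAP3K11 arrays, against 5.55, 6.74 and 8.68 in the others (2.39 ± 0.21), and 2 other arrays reached the MAP3K11 range. Ccl17 and Ccl22 (1.02) are ligands of CCR4, and Ccl24 (2.32) attracts eosinophils. Cx3cl1, or fractalkine, read 6.47, 7.43 and 7.85 in MAP3K11 arrays, against 7.99, 9.33 and 10.75 in the others (-1.99 ± 0.2), and its receptor Cx3cr1 fell by 1.09. The monocyte attractants Ccl12 (-1.84) and Ccl2 (-1.03) fell with their receptor Ccr2 (-1.61), and Cxcl12 (-1.64) and the interferon-induced Cxcl10 (-1.63) fell. Of the macrophage markers 0 of 12 rose and 6 fell at an adjusted p under 0.05, with a mean of 9.82 to 10.26 in MAP3K11 arrays and 9.25 to 11.27 in the others. Dendritic cell markers had 5 of 8 higher and 0 lower, with a mean of 6.77 to 7.3 in MAP3K11 arrays and 5.69 to 7.11 in the others. The part of these cells in the results was not tested.

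Granule proteases varied by kind. Of 9 granzymes, a family set up after the values were seen, 4 were 2-fold higher and 0 lower, among them Gzme (2.14), Gzmd and Gzmg, but Gzmd and Gzmg lose the call with pairs as a block (adjusted p = 0.148 and 0.129). Both also lose it without T2 replicate 1 (1.29 and 1.30) or T3 replicate 2 (1.19 and 1.16), and Gzmd without T2 replicate 2 (1.53), against 1.5 and 1.83 over all 6 arrays. T and NK cell markers had 2 of 7 higher (0 with pairs as a block), and their mean was 5.24 to 6.1 in MAP3K11 arrays and 4.88 to 6.31 in the others. Of 9 mast cell and basophil proteases, likewise set up afterwards, Mcpt1 (2.61), Mcpt8 (1.67) and Mcpt-ps1 were 2-fold higher and Tpsab1 (-1.52) and Mcpt2 (-1.40) 2-fold lower. The mean of 7 mast cell markers was 4.94 to 5.77 in MAP3K11 arrays and 4.87 to 7.01 in the others, and 1 of the 7 fell (0 with pairs as a block). The T cell receptor segment Trbv1 fell by 4.36 ± 0.35.

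Genes named for neurons rose more often than they fell in the MAP3K11 tumours. Of 84 neuronal and axonal genes 34 rose and 10 fell, 13 and 5 of them by 2-fold. Gap43, a growth cone protein, read 11.76, 11.92 and 12.16 in MAP3K11 arrays, against 5.06, 6.5 and 9.95 in the others (5.28 ± 0.31), with no overlap. The neurofilament genes Nefm (4.60 ± 0.39) and Nefl (3.47 ± 0.59), the tubulin-binding Stmn4 (3.86 ± 0.15), the ubiquitin hydrolase Uchl1 (3.09 ± 0.11) and the adhesion molecule L1cam (2.92 ± 0.14) rose. Of these, Stmn4, Uchl1 and L1cam lay above all other arrays. The neuronal pentraxin Nptx1 (-4.83 ± 0.53), the adhesion molecule Kirrel3 (-3.90 ± 0.27) and the tubulin Tubb3 (-1.05) fell. Ngfr, the p75 neurotrophin receptor, read 7.72, 10.14 and 10.85 in MAP3K11 arrays, against 5.09, 5.8 and 9.21 in the others (3.61 ± 0.3), of which 2 reached the MAP3K11 range. It was the only one of 6 Schwann cell and nerve markers to rise, and the mean of the 6 was 6.59 to 7.03 in MAP3K11 arrays, against 5.99 to 6.7 in the others; its part in the neuronal genes was not tested. Of 70 guidance genes 27 rose and 11 fell, with Epha3 higher by 1.99 and Plxdc1 (-3.65), Sema5a (-2.46) and Nrp2 (-1.43) lower with no overlap.

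In metabolism the hypoxia and glycolysis list had 7 of 57 genes higher and 16 lower, against 7 and 7 with pairs as a block, where over all genes 29.3% were lower without the block. Car9, a carbonic anhydrase induced by hypoxia, read 5.42, 5.84 and 6.19 in MAP3K11 arrays, against 4.94, 8.41 and 10.59 in the others (-2.41 ± 0.41), and 6 other arrays lay as low. Egln3, an oxygen sensor that hypoxia also induces, fell by 2.59. The phosphofructokinase Pfkp (1.76) and the hexokinase Hk1 (1.01) rose with no overlap, while Eno3, the muscle enolase, fell by 3.92 ± 0.18. Of 127 detoxification genes 35 rose and 31 fell, close to the shares over all genes, 25.0% and 29.3%. The oxidase Nox4, which makes hydrogen peroxide, read 9.98, 10.19 and 10.55 in MAP3K11 arrays, against 6.25, 7.69 and 9.02 in the others (2.53 ± 0.24), with no overlap. The cytochrome P450 enzymes Cyp7b1 (1.96) and Cyp1b1 (1.92) rose and the epoxide hydrolase Ephx1 fell by 1.96. In the prostaglandin list 15 of 45 rose and 9 fell, with the cyclooxygenase Ptgs2 (1.06), the degrading enzyme Hpgd (1.81) and the lipoxygenase Alox5 (1.31) higher and the synthase Hpgds lower by 1.23. In the retinoid list 8 of 29 rose and 7 fell, with the storage enzyme Lrat (1.71) and the receptor Rarb (1.46) higher and the carrier Crabp2 lower by 2.00. Urate oxidase, Uox, read 7.24, 7.71 and 8.4 in MAP3K11 arrays, against 4.01, 4.5 and 5.22 in the others (3.22 ± 0.1), with no overlap. Urah, the next enzyme of urate breakdown, was picked after its value was seen and rose by 2.02.

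Large housekeeping lists shifted by small amounts. Of 90 oxidative phosphorylation genes 8 rose and 57 fell, with a median of -0.17, and of 124 ribosomal protein genes 9 rose and 76 fell, with a median of -0.11. Of 345 zinc finger genes 51 rose and 150 fell (median -0.11). Under quantile normalization these medians were -0.11, -0.06 and -0.10, and under median centring -0.19, -0.13 and -0.13, against a median of all genes of -0.01 as deposited, 0.01 and -0.04. The 2-fold members in the first lists were the variants Ndufa4l2 (1.11), Rpl39l (1.63) and Rps4l (1.43). Of 61 proliferation genes 6 rose and 22 fell, and E2f8 (-1.47) passed 2-fold. In the unfolded protein response none of 25 genes passed 2-fold, 4 rose and 9 fell, and of 51 amino acid and ATF4 genes only Phgdh, of serine synthesis, did (-1.20).

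Skeletal muscle markers fell in 11 of 18 and rose in none, and with pairs as a block 2 of the 18 were called. Their mean was 4.47 to 4.66 in MAP3K11 arrays, against 4.42, 5.52 and 10.32 (lowest, median and highest) in the others. Myh1, a fast myosin, read 2.4, 2.86 and 3.17 in MAP3K11 arrays, around background, against 3.26, 7.09 and 10.97 in the others, at least 18.5-fold lower with values under background set to it (adjusted p = 7.51e-10), and Acta1, skeletal actin, fell by 3.52 ± 0.86. Adipocyte markers had 0 of 9 called by limma and 2 at an unadjusted p under 0.05, with a mean of 5.13 to 9.15 in MAP3K11 arrays and 4.59 to 9.24 in the others. Endothelial markers had 9 of 12 higher and 0 lower, with a mean of 7.64 to 8.05 in MAP3K11 arrays and 6.16 to 8.34 in the others. Of 165 cytoskeleton genes 50 rose and 29 fell, led by Nebl (4.01 ± 0.28) and the motor Myo5b (3.59 ± 0.58), and 3 of the 8 that fell by 2-fold lose that count with pairs as a block.

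Of 9 peptidylarginine deiminases, transglutaminases and peroxidases 3 rose and 3 fell, and Padi4, a peptidylarginine deiminase, fell by 4.93 ± 0.37, with 2 other arrays as low. Another 191 of the higher and 177 of the lower genes are in no functional list. Macc1, a gene linked to MET signalling, had the lowest difference of all: it read 3.15, 4.26 and 4.51 in MAP3K11 arrays, against 6.13, 9.25 and 10.58 in the others (-5.04 ± 0.35). The teneurin Tenm4 (-3.42), the N-acetylaspartate enzyme Aspa (-3.36), the adenylate kinase Ak5 (-3.04) and the scramblase Plscr2 (-2.96) fell. Among the higher ones Igsf5, a junctional adhesion protein, read 7.92, 8.29 and 8.58 in MAP3K11 arrays, against 3.3, 4.41 and 5.83 in the others (3.83 ± 0.19), with no overlap. Sdcbp2, a syntenin, rose by 3.31 ± 0.18 and the fetal plasma protein Afp by 2.91. Others picked from these after their values were seen were the natriuretic peptide Nppb (2.16), the receptor of GDNF Gfra1 (1.77) with its relative Gfra2 (-1.91), and 2 genes that glucocorticoids induce, Tsc22d3 (-1.83, no overlap) and Fkbp5 (-1.11).

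Promoter sequences of genes with the widest differences are shown because AP-1 is the factor at the end of the cascade that MLK3 starts. The windows run from 250 bases before to 50 after the start of each gene, in the gene's direction, from RefSeq (GRCm38.p6). Capitals mark TGACTCA, the AP-1 element, or TATAAA, on either strand (so that TGACTCA can appear as TGAGTCA and TATAAA as TTTATA). Ano4 (chr10:89257741-89258040, minus strand) and Cftr (chr6:18170437-18170736, plus strand), the 2 genes highest by the fitted difference, hold neither motif. Macc1 (chr12:119443160-119443459, plus strand) and Padi4 (chr4:140774154-140774453, minus strand), the 2 lowest, hold both.
Ano4: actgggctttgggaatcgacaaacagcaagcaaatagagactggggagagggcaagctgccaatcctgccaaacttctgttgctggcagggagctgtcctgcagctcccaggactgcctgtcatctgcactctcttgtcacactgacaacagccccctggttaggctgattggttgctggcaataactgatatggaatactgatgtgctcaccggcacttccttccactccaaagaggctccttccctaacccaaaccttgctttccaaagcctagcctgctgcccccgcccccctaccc
Cftr: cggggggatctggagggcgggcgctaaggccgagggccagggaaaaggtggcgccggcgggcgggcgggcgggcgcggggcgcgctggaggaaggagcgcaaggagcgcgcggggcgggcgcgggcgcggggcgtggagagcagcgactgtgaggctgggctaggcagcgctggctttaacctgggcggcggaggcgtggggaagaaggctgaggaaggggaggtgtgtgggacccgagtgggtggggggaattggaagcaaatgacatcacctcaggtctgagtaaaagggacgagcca
Macc1: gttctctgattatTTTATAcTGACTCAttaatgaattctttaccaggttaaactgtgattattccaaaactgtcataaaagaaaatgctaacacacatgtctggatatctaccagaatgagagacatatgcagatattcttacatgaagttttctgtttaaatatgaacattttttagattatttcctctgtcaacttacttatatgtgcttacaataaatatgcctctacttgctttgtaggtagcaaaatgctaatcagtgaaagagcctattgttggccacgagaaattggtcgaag
Padi4: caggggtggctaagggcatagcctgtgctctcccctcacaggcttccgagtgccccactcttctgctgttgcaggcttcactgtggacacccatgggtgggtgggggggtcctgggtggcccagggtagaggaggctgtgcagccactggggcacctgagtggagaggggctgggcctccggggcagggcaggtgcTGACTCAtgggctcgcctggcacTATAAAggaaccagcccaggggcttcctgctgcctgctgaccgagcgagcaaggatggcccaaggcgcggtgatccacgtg

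AP-1 elements were also found within the windows of other higher genes, of which stretches of 30 bases were chosen after the values were seen. They come from Nebl (chr2:17731088-17731117, minus strand), Tnfaip6 (chr2:52037960-52037989, plus strand), Sdcbp2 (chr2:151572568-151572597, plus strand) and Il11 (chr7:4778221-4778250, minus strand), with the element in capitals.
Nebl: gcgagtgcttgTGAGTCAccggtacctgga
Tnfaip6: gccaatgcaaaTGAGTCAgagggcttgctt
Sdcbp2: ctagtccacggTGAGTCAgctgaacaaggg
Il11: aggagggagggTGAGTCAggatgtgtcagg

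Stretches around the interferon-stimulated element, which is GAAA, any 2 bases and GAAA (TTTC, any 2 bases and TTTC on the other strand), with each match in capitals, were chosen in the same way from genes that fell. They come from Gbp2 (chr3:142620594-142620623, plus strand), Gbp2b (chr3:142594700-142594729, plus strand), Bst2 (chr8:71537583-71537612, minus strand) and Ifit1 (chr19:34640775-34640804, plus strand). Bst2 holds 2 matches that overlap.
Gbp2: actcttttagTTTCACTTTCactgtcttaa
Gbp2b: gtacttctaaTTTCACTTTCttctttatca
Bst2: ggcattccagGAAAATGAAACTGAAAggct
Ifit1: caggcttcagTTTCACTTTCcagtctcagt

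Promoter windows were given for 362 of the higher genes, 237 of the lower genes and 11111 of all genes tested. TGACTCA was present in 43 of the higher (11.9%), 22 of the lower (9.28%) and 553 of all (4.98%). The cyclic AMP element TGACGTCA, which does not contain TGACTCA, was present in 16 of the higher (4.42%), 2 of the lower (0.844%) and 365 of all (3.29%). The interferon-stimulated element was present in 14 of the higher (3.87%), 20 of the lower (8.44%) and 393 of all (3.54%). TATAAA was present in 58 of the higher (16.0%), 31 of the lower (13.1%) and 1081 of all (9.73%). These are matches of letters on both strands and no measurement of binding.

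The 803 genes differed in how uniform they were over the 6 MAP3K11 arrays. The range over these arrays was under 1 in 518 genes and at least 2 in 62. Every MAP3K11 array lay at least 2-fold beyond the mean of the others in 235 of the higher and 166 of the lower genes, and in 10 and 5 genes at least 1 array reached that mean. Psd3, an exchange factor of the small GTPase ARF6, had the smallest SD (0.04), followed by Phlda1 and Pxdc1 (0.05 each). The widest was Clca3b (SD 2.56): T1 replicate 2 and T2 replicate 2 read 4.72 and 4.89, and the other 4 arrays 9.05 to 10.49. These 2 arrays form a pair, and other wide genes also followed the pairs. Hps1, a gene of lysosome-related organelles, read 11.97 and 12.21 in T2 replicate 1 and T3 replicate 2 and 8.25 to 8.45 in the other 4. Npr3, the clearance receptor of natriuretic peptides, read 8.45 and 8.65 in T1 replicate 2 and T2 replicate 2, the only arrays in which it was well above the mean of the other groups, which was 4.99. Its difference of 1.40 was no longer called when T1 replicate 2 was left out (1.0) or when T2 replicate 2 was (0.94). Krt20 read 9.18 and 9.16 in T1 replicate 1 and T3 replicate 1 and 6.26 to 6.68 in the other 4. Over the 50 most variable genes the pair means ranged over 2.46 on average, while the arrays within a pair differed by 0.46 to 0.62 on average. The pairs were found from these same arrays and the genes picked for their spread over them. This contrast is therefore in part built in and is no test.

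**Figure D4:**
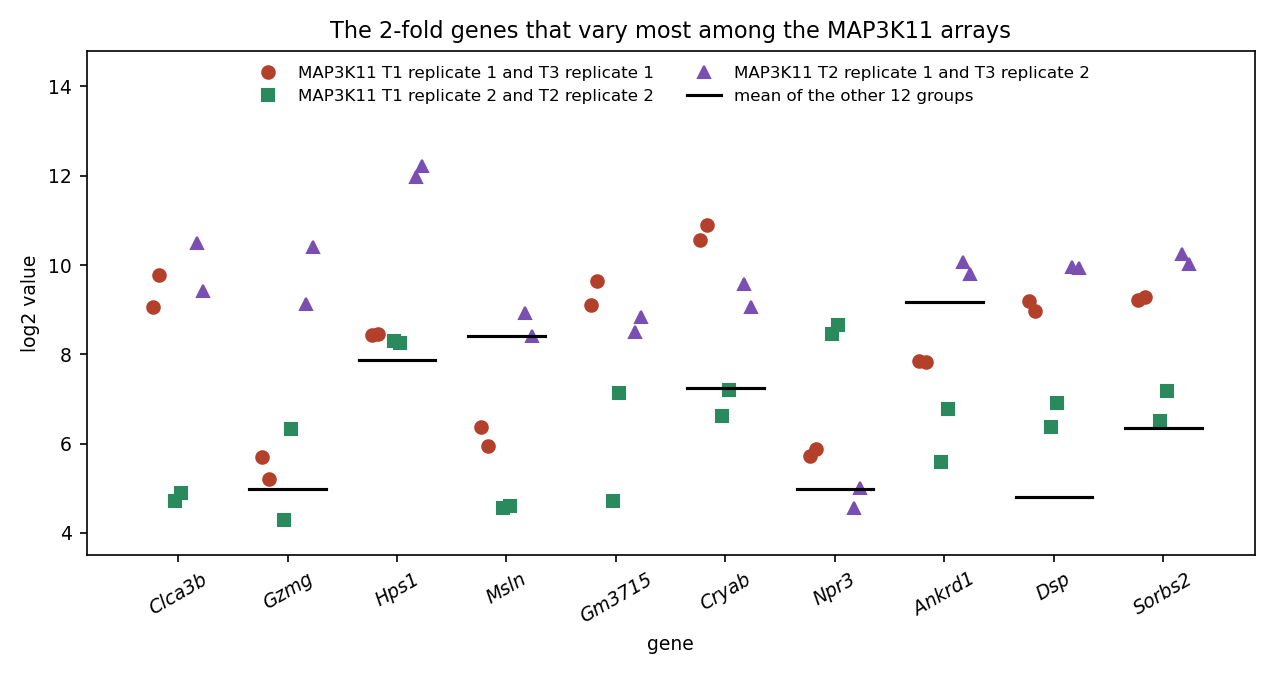
Log2 values of the 10 called 2-fold genes with the largest SD over the 6 MAP3K11 arrays, with a colour and symbol for each pair of arrays and a line for the mean of the other 12 groups. The arrays of a pair lie close together, as in Hps1, where T2 replicate 1 and T3 replicate 2 read 11.97 and 12.21 and the other 4 arrays 8.25 to 8.45. The pairs were found from the same arrays.

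The arrays of MAP3K11 correlated with each other more than those of any other group did outside the pairs. After each gene was centred on its mean, Pearson's r across genes was 0.90 within each of the 3 pairs and 0.69 to 0.85 between arrays of different pairs. In the other 12 groups it was 0.37 to 0.89 within pairs and -0.35 to 0.63 between them. These are correlations across genes, which are not independent replicates, and they carry no test. A group with many genes far from the mean of all arrays tends to a high r, and MAP3K11 had the most 2-fold genes. The higher r therefore does not show that the MAP3K11 tumours were more uniform. Among the other groups, 2 MAP3K7 arrays came nearest. In T1 replicate 2 of MAP3K7, 200 of the 489 higher and 106 of the 314 lower genes lay within or beyond the MAP3K11 range, and in T3 replicate 1 of MAP3K7 196 and 96. The median array of the 70 had 32.5 and 27.5. These 2 MAP3K7 arrays also form a pair, and without them limma called 508 genes 2-fold higher and 329 2-fold lower.

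**Figure D5:**
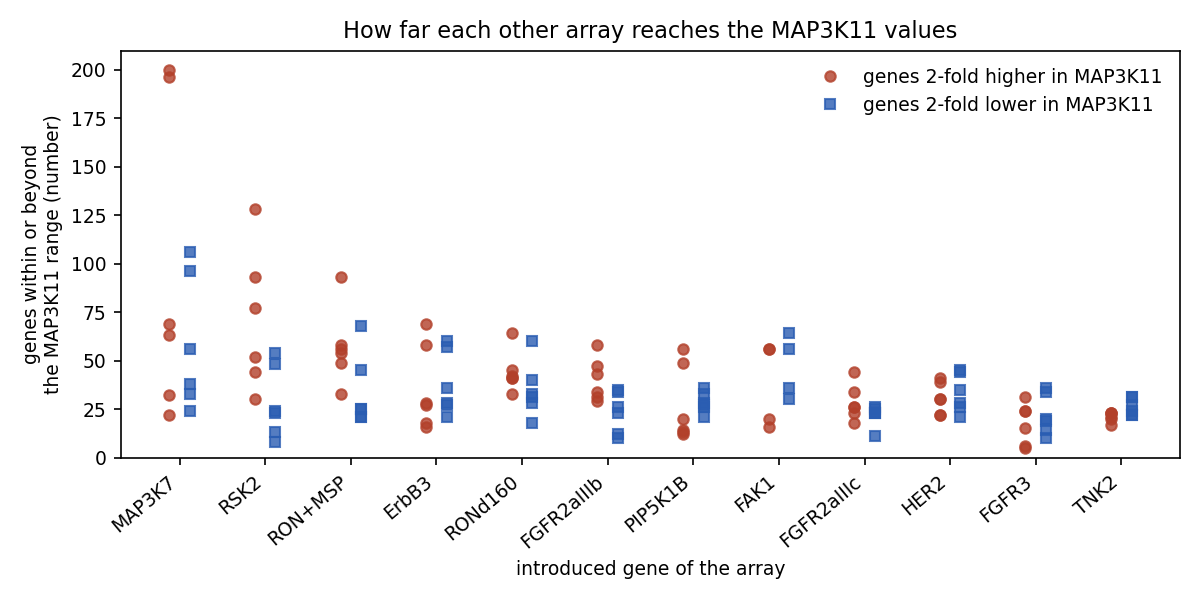
For each of the 70 other arrays, grouped by introduced gene, the number of the 489 higher genes (red circles) and of the 314 lower genes (blue squares) whose value lay within or beyond the range of the 6 MAP3K11 arrays. Of the MAP3K7 arrays 2 stand apart at 200 and 196 higher genes and 106 and 96 lower genes.

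By position, the X chromosome had the largest share of 2-fold lower genes. Of 416 X-linked genes tested 23 (5.53%) were 2-fold lower and 16 (3.85%) 2-fold higher, while the autosomes had 1.0 to 3.63% lower and 2.48 to 5.13% higher. Of the 23 lower genes 9 lay below all other arrays, among them, picked after their values were seen, Prps2 (-1.56), a synthetase of nucleotide precursors, the monoamine oxidase Maoa (-1.14), the kinase Pdk3 (-1.04) and Tsc22d3. On chromosome 12 the genes Cdca7l (-2.38), Itgb8 and Macc1 fell, while Sp8, which lies between the first and the second of them and was picked for its place, rose by 1.25. In windows of 20 neighbouring tested genes the lowest median, -0.49, was at chr8:47824482-60983317, where 13 genes fell and 1 rose. A window with a median of 0.30 at chr14:55897283-56815051 held 7 2-fold higher genes, with the granzyme and mast cell protease genes among its members.

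The 2-fold limit itself divides genes with nearly equal values. Just inside it stood Adamtsl5 and F3 among the higher and Psmb10 and Gpr183 among the lower genes, and just outside it Cd40 and Rmdn2 and, on the lower side, Trim21 and Zbtb12. Of 557 other probe sets of the 2-fold genes, which belong to 352 genes, 547 differed in the same direction and 310 of these by 2-fold. None of the 10 in the opposite direction passed 2-fold.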

How the data were processed

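Per the labels' protocols, total RNA of tumour material was extracted with a Qiagen RNeasy kit and made into biotinylated cRNA by the Affymetrix protocol. The authors deposited log2 values for 45101 probe sets on 76 arrays, from 1.77 to 14.18; the submitters' processing notes name affy, and how they were normalized is not stated in those notes. Array medians were 5.45 to 5.56, and the values were used as deposited. The number of arrays and not a read depth limits the precision.

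Of the probe sets, 34958 name 1 gene in the platform annotation, 932 several and 9211 none. For each of 18194 genes the probe set of highest mean was kept, and 13868 above the 40th percentile of at least 4 arrays were tested. limma (3.58.1, R 4.3.3, statmod 1.5.0, data.table version 1.17.8) was fitted to all arrays with terms for introduced gene and T label, two-sided, with Benjamini-Hochberg adjustment over all genes and 61 residual degrees of freedom. The replicate numbers pair nothing in the labels. The pairs used as a random block were found from chromosome medians (correlation 0.628). The script was tested on simulated data with independent noise on each array. That test leaves out the correlation within pairs and so does not check the p-values for it.

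The members and all 57 functional and 13 cell type lists were chosen with earlier results of these data known. Named genes are the 50 highest and 50 lowest, up to 6 2-fold members a list and direction, the 10 most and 10 least variable, those at the 2-fold limit, those whose promoters are shown and the introduced genes; others, Notch4 and Plaur included, were chosen after their values were seen. The gene named in the series title is left out here.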

Additional observations from a re-analysis of the deposited data

Results flagged for a closer look

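Among 260 named genes, 5 had 1 of the 6 MAP3K11 arrays far from the other 5 by Dixon's test at the 95% level, which by chance picks out about 1 in 20 groups. Csf1 read 8.63 in T2 replicate 2, and the next highest array 8.31. Hpgd read 7.2 in T2 replicate 1, and the next highest array 6.56. Padi4 read 4.76 in T3 replicate 1, and the next highest array 4.36. Pde8a read 8.97 in T2 replicate 1, and the next lowest array 9.33. The mouse Map3k11 probe set read 7.01 in T1 replicate 2, and the next lowest array 7.2.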

How the results depend on the processing

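Of 37 alternatives, 36 kept each count of calls within 1.5 times its value. The exception, limma's test against a difference of 2-fold (treat) in place of no difference, called 238 genes, 147 higher and 91 lower, since by construction it asks for more than a fold of 2. With the replicate number as a replicate block the counts were 7495 called, 487 higher and 317 lower; the labels do not say that a number marks a shared mouse or day. With pairs of arrays as a random block they were 5455, 480 and 293, as fitted in that model. Over all genes that block left 2393 called higher and 3062 called lower, against 3461 and 4060 without it. Losses of single lists are to be read beside this general loss. Under that block these counts of list members moved by over 1.5 times, besides those given above: solute carriers 50 higher and 25 lower, G protein-coupled receptors 13 lower, TGF-beta superfamily 10 higher, interleukins 14 higher and 5 lower, Notch and Hedgehog genes 3 lower, TNF genes 3 lower, acute phase factors 4 and 1, proteases 42 higher, complement and coagulation 3 lower, keratins 5 and 0, mucins 5 higher, JNK and AP-1 genes 5 lower, detoxification genes 23 higher, cytoskeleton genes 18 lower, oxidative phosphorylation 5 higher, unfolded protein response 2 and 5, amino acid and ATF4 genes 4 higher, class I genes 0 higher, NF-kappaB targets 7 higher, sterol genes 6 and 6, glycosyltransferases 13 lower, ABC transporters 5 lower, and imprinted genes 1 lower. Leaving out each replicate in turn gave 6862 to 7193 called, 473 to 500 higher and 299 to 324 lower; leaving out a MAP3K11 pair gave 6161 to 6714, 480 to 508 and 294 to 330. Over 9335 values of 260 named genes none reversed, 150 were no longer called (125 of them under treat) and 17, of the uncalled Map3k11, Map3k7 and Erbb2, were called. Without the pair T2 replicate 1 and T3 replicate 2, Ccl2 (-0.84), Mcpt2 (-1.09), Gzmd (0.85), Gzmg (0.36) and Clca3a1 (1.07) were not called, and Clca3a1 was not without T1 replicate 1 and T3 replicate 1 either (1.33); without T1 replicate 2 and T2 replicate 2, Btc (1.05), Sfrp1 (0.85), Msln (-0.96) and Npr3 (0.33) were not. Btc was not called on its probe set of largest variance (0.96), Gzmd with the replicate block (1.35) or the muscle marker mean as a covariate (1.49), and neither Gzmd without HER2 (1.35) or RSK2 (1.39) nor Gzmg without FGFR2aIIIc (1.67). The cause of these changes was not tested. Homeobox genes 2-fold lower, 2 as reported, ranged up to 4, and zinc finger genes 2-fold lower, 4 as reported, up to 8 under median centring.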

Other observations

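Lists not described above moved less or in both directions. Of 42 ABC transporters and aquaporins 10 rose and 9 fell, with the drug efflux pump Abcb1a higher by 1.45. Of 38 cadherins and protocadherins 15 rose and 10 fell, with Pcdh17 (1.98) higher and Pcdh18 (-2.22) lower. Of 98 glycosyltransferases and sulfotransferases 29 rose and 21 fell, with the sulfotransferase Chst8 (2.46) higher and the mucin-type transferase Galnt1 (-1.45) lower. Of 52 sterol and fatty acid genes 12 rose and 10 fell, and the cholesterol synthesis enzymes Dhcr7 and Hsd17b7 passed 2-fold. Of 36 cell cycle inhibitors and p53 targets 7 rose and 13 fell, with the kinase Plk3 (1.33) and the cell death gene Pmaip1 (1.22) 2-fold higher. Of 40 NF-kappaB targets 12 rose and 13 fell, and the adhesion receptor Vcam1 fell by 2.12. Of 20 imprinted and dosage genes 7 rose and 2 fell, with Peg3 (2.29) and Mest (1.42) higher.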
